A study of Homo sapiens with 2 samples.

Results

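The genes of sterol and fatty-acid synthesis were followed through a knockdown of SET7/9, a lysine methyltransferase encoded by SETD7, in a pair of gastric cancer cell lines. The 28 genes were chosen by name as enzymes and regulators of these pathways, and stood among 25940 gene names on the array. The rule uses no measured value, but the choice was made with earlier results of these data known. They comprised 16 enzymes of the sterol pathway, 5 regulators and transporters, and 7 genes of fatty-acid synthesis, elongation and desaturation. They were covered by 37 of the 34127 gene probes, with 1 probe for 22 genes and more than 1 for 6.

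Cells of the established gastric cancer lines MKN74 and MKN45 were grown in RPMI1640 medium with FBS and electroporated with 50 nM SET7/9 siRNA or 50 nM negative control siRNA. Total RNA was taken at 48 hours and hybridised to 1 two-colour array per cell line, with the SET7/9 siRNA sample always in Cy5 and the control always in Cy3. The study names more than 1 siRNA against SET7/9, and the one used for the arrays is not given in the sources used here. The dyes were not swapped and there were no replicate arrays, so that dye and siRNA cannot be told apart, and the number of arrays limits the precision of every value. Serum supplies cholesterol and fatty acids to both groups of cells.

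Cholesterol is built from acetyl-CoA through the mevalonate pathway, squalene and lanosterol. Most of its enzymes are transcribed under SREBP-2, the product of SREBF2, while SREBP-1, the product of SREBF1, acts mainly on fatty-acid genes. Both factors are held in the endoplasmic reticulum by SCAP and INSIG proteins when sterols are abundant, and are released by proteolysis when sterols are scarce. They bind sterol regulatory elements in promoters, often beside the CCAAT box bound by NF-Y.

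Promoter windows of 300 bases, 250 before and 50 after the start site, were taken from RefSeq on GRCh38.p14 and matched 24 of the 28 genes. Both strands were searched. CCAAT was present in 11 of the 13 sterol enzyme genes with a window and in 12 of their 17 windows (70.6%), against 34.6% of all 35116 windows. The sterol regulatory element, searched as TCACNCCAC, was present in 1 of the 24 genes, SREBF2. It was in 0 of the 17 sterol enzyme windows, against 1.13% of all windows. CACGTG, the E-box, was present in 3 of the 24 genes, SCAP, INSIG1 and LSS. It was in 1 of the 17 sterol enzyme windows (5.88%), against 7.26% of all windows. The 24 genes had 32 windows, so counts of genes and shares of windows are unlike units. These are letter matches and not measured binding.

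Stretches upstream of the start site are printed for SREBF2, which held the sterol regulatory element letters, and for 4 of the sterol enzymes with at least 3 CCAAT boxes, from MVD, the lowest sterol gene in MKN45, to FDPS, one of those nearest 0. Capitals mark TCACNCCAC in SREBF2, and CCAAT or its complement ATTGG in all sequences.
SREBF2, chr22:41832955-41833024, plus strand: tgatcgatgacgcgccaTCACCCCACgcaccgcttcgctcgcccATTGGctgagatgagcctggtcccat
MVD, chr16:88663162-88663261, minus strand: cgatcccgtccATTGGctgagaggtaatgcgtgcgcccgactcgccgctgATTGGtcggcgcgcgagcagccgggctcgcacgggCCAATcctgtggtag
NSDHL, chrX:152830913-152830992, plus strand: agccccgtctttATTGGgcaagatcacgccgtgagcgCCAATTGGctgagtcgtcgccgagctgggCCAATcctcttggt
MVK, chr12:109573574-109573753, plus strand: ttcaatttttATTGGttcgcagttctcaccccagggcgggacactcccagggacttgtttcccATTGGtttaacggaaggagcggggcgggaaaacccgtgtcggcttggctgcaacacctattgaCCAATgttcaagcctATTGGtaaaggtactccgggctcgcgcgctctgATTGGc
FDPS, chr1:155308681-155308825, plus strand: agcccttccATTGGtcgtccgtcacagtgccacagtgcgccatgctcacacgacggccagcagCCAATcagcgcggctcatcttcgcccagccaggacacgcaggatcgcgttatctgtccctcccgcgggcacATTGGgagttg

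Both arrays carried strong signals of the epithelial markers, with all 5 well above background in Cy3. Of 9 blood, fibroblast and endothelial markers, 2 were well above background in MKN74 and 5 in MKN45, and the highest signal among them was 183 (COL1A1, MKN74), where the lowest of the epithelial markers was 22300 (EPCAM, MKN45). A probe was kept where it was well above background in at least 1 channel, and all 28 genes passed, each with Cy3 and Cy5 well above background in MKN74 and in MKN45. None of the errors given is a replicate SD. The error model of the scanner software gave each log2 ratio an error between 0.20 and 0.22 for the 28 genes, and the pooled SD of repeated spots within an array was 0.087 in MKN74 and 0.099 in MKN45. The study's cutoff of 1.5-fold, which is 0.58 on the log2 scale, was used unless another is stated.

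SETD7, the target of the siRNA, had a signal of 369 in control and 90.1 in SET7/9 siRNA cells in MKN74, and of 197 and 51.2 in MKN45. Its log2 ratio was -2.03 (scanner error 0.28) and -1.95 (0.28), which became -1.36 and -0.99 where the background was corrected by normexp and the arrays were loess normalized. Another SETD7 probe gave 0.24 and -0.23, so that the reduction was measured at 1 of the 2 probes.

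The question put to the 28 genes was how their RNA levels changed with SET7/9 siRNA. All but 1 stayed within 1.5-fold of the control in both lines. In MKN74, 1 of the 28 genes, FADS1, was at least 1.5-fold higher and 0 were lower, where 3.8% of the 15958 kept genes were at least 1.5-fold higher and 1.72% lower. In MKN45, 0 were past the cutoff in either direction, where 4.65% of 17531 genes were higher and 1.9% lower. Such calls were rarer among genes in the signal range of the sterol enzymes. There, 23 of 7956 were higher and 16 lower in MKN74, and 20 of 7959 were higher and 7 lower in MKN45. Within 1.5-fold of the control, the sterol enzymes of MKN45 lay on the same side. Of these, 16 of 16 had a log2 ratio below 0, with a median of -0.24, where 46.8% of all kept genes were below 0. After normexp and loess 14 of 16 were below 0, with DHCR7 at 0.10 and PMVK at 0.00. In MKN74, 11 of 16 were below 0, with a median of -0.04, where 48.8% of all genes were.

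**Figure D1:**
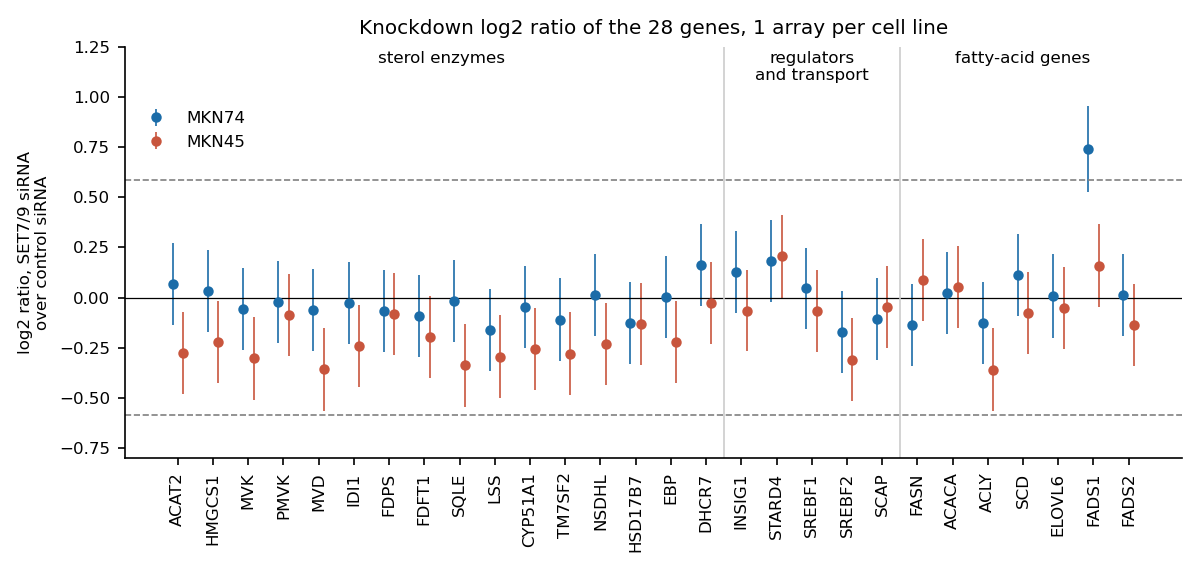
Log2 ratio of SET7/9 siRNA over control siRNA (y axis) for each of the 28 genes (x axis), 1 point per array, blue for MKN74 and red for MKN45; bars are the error of the scanner software and dashed lines the 1.5-fold cutoff. FADS1 in MKN74, at 0.74, is the only point outside the dashed lines, and all 16 red points of the sterol enzymes lie below 0.

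The sterol enzymes were bright on both arrays, so they were also set beside the 7959 genes whose signal fell in the same range. Those genes had a median of 0.00 in both lines, and 50.6% of them in MKN74 and 50.4% in MKN45 were below 0. In MKN45, 11 of the 16 sterol enzymes (68.8%) were lower by at least 0.2 on the log2 scale, against 8.22% of the genes in that range. In MKN74, 0 of the 16 were, against 9.41%. The same 11 enzymes were lower in MKN45 by more than their scanner error, which lay close to this step. The share of all genes past their scanner error was not computed. The step of 0.2 is smaller than the 1.5-fold cutoff, which 0 of the 16 passed. After normexp and loess, ACAT2 (-0.14), HMGCS1 (-0.18) and TM7SF2 (-0.19) did not reach the step in MKN45, and FDFT1 (-0.25) did. Every one of the 16 had a lower log2 ratio in MKN45 than in MKN74, with a median difference of -0.21, where 50.8% of the genes measured in both lines were lower in MKN45. For 3 of the 16, ACAT2, MVD and SQLE, this difference exceeded the combined scanner error. How many of all genes did so was not computed. The middle 50% of the genes in the signal range had differences between -0.095 and 0.088. With 1 array per line, a difference between arrays and a difference between cell lines cannot be told apart.

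The upstream steps of the sterol pathway join acetyl-CoA units and make mevalonate and the isoprenoid precursors. ACAT2, the cytosolic acetoacetyl-CoA thiolase, had signals of 5920 in control and 6210 in SET7/9 siRNA cells of MKN74, and of 4740 and 3910 in MKN45. These are log2 ratios of 0.07 and -0.28. HMGCS1, which makes HMG-CoA, had 619 and 633 in MKN74 and 1590 and 1360 in MKN45, log2 ratios of 0.03 and -0.22. Both were thus close to the control in MKN74 and lower in MKN45.

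MVK, mevalonate kinase, had log2 ratios of -0.06 and -0.30 in MKN74 and MKN45. MVD, the decarboxylase that ends the mevalonate steps, was read at a probe on GRCh37 whose ends lie at chr16:88718985-88719738. Its signals were 323 in control and 310 in SET7/9 siRNA cells in MKN74, and 346 and 270 in MKN45, log2 ratios of -0.06 and -0.36, the lowest of the sterol enzymes in MKN45. After normexp and loess MVD was at -0.26 there, with MVK at -0.31 and EBP at -0.30 below it. IDI1, the isomerase of isopentenyl diphosphate, was at -0.03 and -0.24. PMVK, the second kinase of the pathway, at -0.02 and -0.09, and FDPS, farnesyl diphosphate synthase, at -0.07 and -0.08, remained within their scanner error in both lines. FDPS and MVD held 3 CCAAT matches each in their windows. A relation between such matches and the log2 ratios was not tested.

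The squalene and lanosterol steps followed. FDFT1, squalene synthase, had log2 ratios of -0.09 in MKN74 and -0.20 in MKN45. SQLE, squalene epoxidase and a rate-limiting enzyme, had signals of 3440 in control and 3400 in SET7/9 siRNA cells in MKN74, and of 4390 and 3470 in MKN45, log2 ratios of -0.02 and -0.34. LSS, lanosterol synthase, had signals of 1110 and 986 in MKN74 and of 1950 and 1590 in MKN45. Its log2 ratios of -0.16 (error 0.20) and -0.29 (0.21) gave a mean of -0.23. After normexp and loess the ratio in MKN74 was -0.06. Its second probe had signals of 13.5 and 27.0 in MKN74, where Cy3 was not well above background. The bound put Cy5 at least 1.53-fold higher, but after normexp and loess the log2 ratio of this probe was only 0.14. The size of its difference thus depends on the processing, and the sign of LSS in MKN74 rests on the choice of probe. In MKN45 the second probe was at -0.07, on the same side as the brighter one.

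Of the enzymes that turn lanosterol into cholesterol, CYP51A1, the lanosterol demethylase, was at -0.05 in MKN74 and -0.26 in MKN45. TM7SF2, a sterol reductase, was printed 10 times on each array and gives the spread within an array. Its log2 ratio was -0.11 (SD 0.065 over 9 spots) in MKN74 and -0.28 (SD 0.062 over 10 spots) in MKN45. NSDHL, which acts in removal of the C4 methyl groups, was at 0.01 and -0.23. EBP, the sterol isomerase, was at 0.00 and -0.22. These 4 were lower in MKN45 by more than their scanner error and none was in MKN74.

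HSD17B7, a ketoreductase, had log2 ratios of -0.13 in both lines at its brightest probe, and its probe with 10 spots gave -0.11 (SD 0.074) and -0.14 (SD 0.051). A pair of dim HSD17B7 probes, not kept in MKN74, were at -0.46 and 0.33 in MKN45 with Cy3 signals of 43.3 and 25.1, and so disagreed in sign. DHCR7, which reduces 7-dehydrocholesterol in the last step of cholesterol synthesis, was the highest sterol enzyme on both arrays. Its signals were 9120 in control and 10200 in SET7/9 siRNA cells in MKN74, and 16700 and 16400 in MKN45, log2 ratios of 0.16 and -0.03.

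Among the regulators, SREBF2 was the lowest in both lines. Its signals were 1910 in control and 1690 in SET7/9 siRNA cells in MKN74, and 892 and 719 in MKN45. The log2 ratios were -0.17 (error 0.20) and -0.31 (0.21), a mean of -0.24. SREBF1 was near the control, at 0.05 in MKN74 and -0.07 in MKN45. Its dimmer probe was at 0.00 and 0.09, so that in MKN45 the sign of SREBF1 differed between its probes. SCAP, which escorts both SREBPs to the Golgi, was at -0.11 and -0.05, and INSIG1, which retains SCAP and is itself a sterol-responsive gene, was at 0.13 and -0.06.

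STARD4, a cytosolic sterol carrier, was the only regulator or transporter above the control on both arrays when each gene was read at its brightest probe. It had signals of 811 in control and 921 in SET7/9 siRNA cells in MKN74, and of 418 and 482 in MKN45, with log2 ratios of 0.18 (error 0.20) and 0.21 (0.21). Its mean was 0.19. The median of the 5 genes was 0.05 in MKN74 and -0.06 in MKN45.

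The fatty-acid genes had median log2 ratios of 0.01 (MKN74) and -0.05 (MKN45), with 2 of 7 and 4 of 7 genes below 0. The sterol median minus the fatty-acid median was -0.05 in MKN74 and -0.18 in MKN45. The first of these was smaller than the spread of repeated spots, and with the mean over kept probes in place of the brightest probe it was 0.04. No test of this difference was made.

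**Figure D2:**
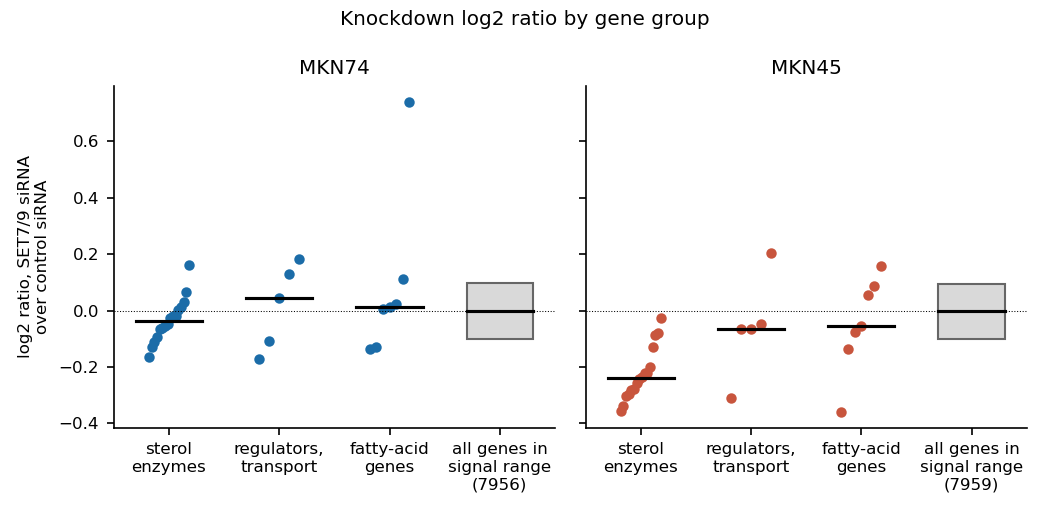
Log2 ratio of SET7/9 siRNA over control siRNA (y axis) by gene group (x axis) in MKN74 (left) and MKN45 (right); points are genes, black lines medians, and the grey box spans the middle 50% of all genes in the signal range of the sterol enzymes. In MKN45 the sterol median of -0.24 lies below the grey box, and the fatty-acid median of -0.05 lies within it.

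ACLY, ATP citrate lyase, makes the cytosolic acetyl-CoA from which both sterols and fatty acids are built. It was read at chr17:40023968-40024027 on GRCh37. Its signals were 1590 in control and 1450 in SET7/9 siRNA cells in MKN74, and 1890 and 1470 in MKN45. Its log2 ratio of -0.13 (error 0.20) in MKN74 and -0.36 (0.21) in MKN45 gave the lowest mean of the 28 genes, -0.24. It was the lowest of the fatty-acid genes in MKN45. FASN, fatty acid synthase, was at -0.14 and 0.09, and ACACA, acetyl-CoA carboxylase 1, at 0.02 and 0.05. A second, dimmer ACACA probe was at -0.16 and -0.18.

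SCD, the desaturase that makes oleate, was at 0.11 in MKN74 and -0.08 in MKN45. ELOVL6, which elongates palmitate, was at 0.01 and -0.05. FADS2, the delta-6 desaturase, was at 0.01 and -0.14. A dimmer FADS2 probe gave 0.24 (error 0.29) and 0.19 (0.24), so that in MKN45 the sign of FADS2 differed between its probes.

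FADS1, the delta-5 desaturase of polyunsaturated fatty-acid synthesis, was the only gene past 1.5-fold. It was read at chr11:61567126-61567185 on GRCh37. Its signal in MKN74 was 555 in control and 928 in SET7/9 siRNA cells, 1.67-fold higher, a log2 ratio of 0.74 (error 0.22). In MKN45 the signals were 3830 and 4270 and the log2 ratio 0.16 (0.20), a difference between the lines of -0.58 (MKN45 minus MKN74, combined error 0.30). FADS1 was above the control on both arrays, and its mean of 0.45 was the highest of the 28 genes. In MKN74 the log2 ratio was 0.71 after normexp and loess. It has 1 probe, printed once, so there is no second reading within an array. FADS1, FADS2 and FADS3 lie side by side on chromosome 11. FADS3, a desaturase homolog outside the 28 genes, was at 0.29 in MKN74 and 0.19 in MKN45.

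The only fit across samples that the design allowed took both arrays as replicates of the knockdown, in limma over 19595 probes with Benjamini-Hochberg adjustment. It rests on 2 arrays of different cell lines and 1 residual degree of freedom. With it, 0 of the 28 genes and 0 of all probes (0.0%) passed an adjusted p of 0.05. At an unadjusted p under 0.05 it found 1 of the 28, SREBF2, with a mean of -0.24, lower on 2 of 2 arrays, where 13.1% of all probes passed. Over the alternatives tried, 0 to 2 of the 28 passed the adjusted threshold. The 2 were FADS1, with a mean of 0.44, and ACLY, with a mean of -0.28, both after normexp and loess, where limma called 1708 of 19595 probes. Their limma adjusted p was 0.0209 and 0.0259 there, and reached 0.659 and 0.589 under other settings.

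The arrays also allow the levels of the 28 genes in control cells of the lines to be compared, probe by probe. Each Cy3 signal was taken relative to the 75th percentile of its array. FADS2, FADS1 and ELOVL6 were far higher in MKN45 than in MKN74, most sterol enzymes were moderately higher, and SREBF2 was lower, as was SREBF1 at the brighter of its probes. In all, 16 of 28 genes were at least 1.5-fold higher in MKN45, where 39.2% of 16700 genes were, and 4 were at least 1.5-fold higher in MKN74, where 24.8% were. The Cy5 channel, which holds the SET7/9 siRNA samples, read RNA from the same lines on the same spots, so it is not independent of Cy3. In Cy5, 14 of the 28 were at least 1.5-fold higher in MKN45 and 5 in MKN74, where 7327 and 4457 of 18245 genes were. In both channels together 14 genes were past the cutoff in the direction of MKN45 and 4 in that of MKN74. The share of all genes past it in both channels was not computed.

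**Figure D3:**
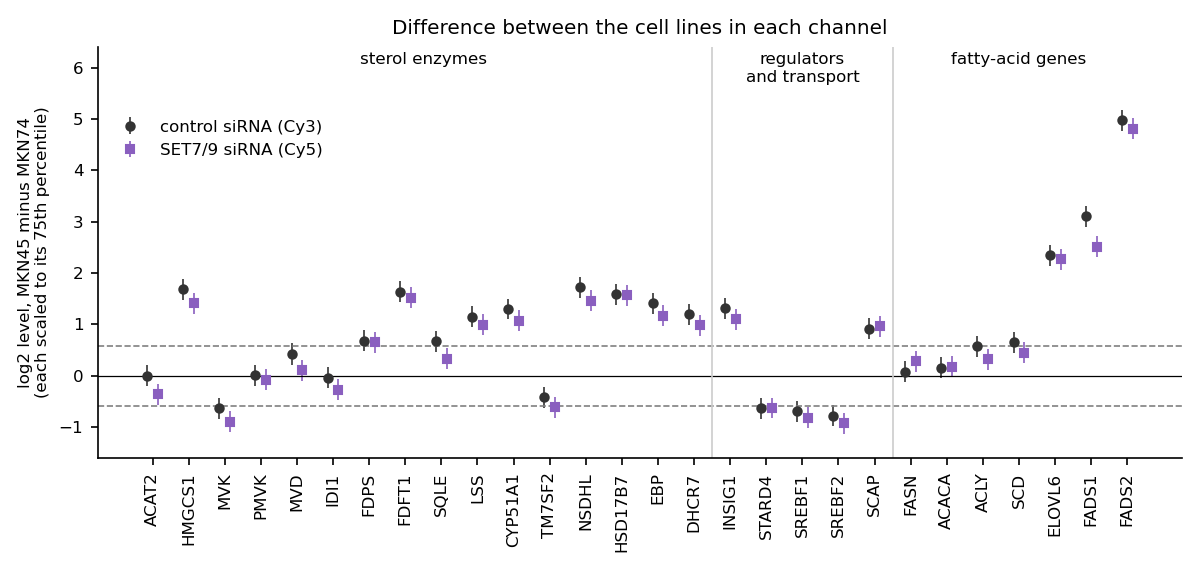
Difference in scaled log2 level between MKN45 and MKN74 (y axis) for each of the 28 genes (x axis), in control cells (black circles, Cy3) and SET7/9 siRNA cells (violet squares, Cy5), 1 array per line; bars are the combined error of the scanner software and dashed lines the 1.5-fold cutoff. FADS2 stands at 4.98 in Cy3 and 4.81 in Cy5, and SREBF1 (brighter probe), SREBF2 and STARD4 lie below 0 in both channels.

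FADS2 and FADS1 had the largest differences of the 28 genes. FADS2, read at chr11:61634754-61634813 on GRCh37, had control signals of 218 in MKN74 and 5480 in MKN45. Its scaled level was 31.5-fold higher in MKN45, a log2 difference of 4.98 (error 0.21), and the log2 difference was 4.81 in the SET7/9 siRNA cells. The dimmer FADS2 probe differed 2.02-fold in the same direction, with signals of 33.8 and 54.5. FADS1 was 8.62-fold higher in MKN45 control cells and 5.69-fold higher in SET7/9 siRNA cells. ELOVL6, with control signals of 130 and 528, was 5.07-fold higher in MKN45 in Cy3 and 4.81-fold in Cy5.

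**Figure D4:**
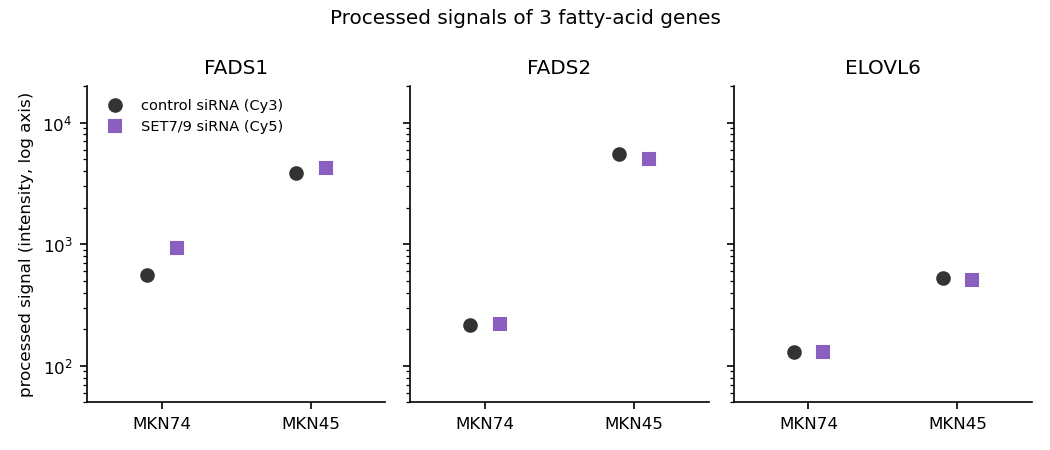
Processed signal (y axis, log scale, not scaled between arrays) of FADS1, FADS2 and ELOVL6 in MKN74 and MKN45 (x axis), 1 spot per array, with control siRNA as black circles and SET7/9 siRNA as violet squares. FADS1 in MKN74 shows the gap between the channels, 555 against 928, and each of the 3 genes has higher signals in MKN45.

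Elongation and desaturation of polyunsaturated fatty acids run through FADS2, ELOVL5 and FADS1 in turn. ELOVL5, outside the 28 genes, was not well above background in either channel in MKN74 and had a control signal of 884 in MKN45, at least 44.1-fold higher. FADS3 went the other way, with control signals of 287 in MKN74 and 84.8 in MKN45, 2.71-fold higher in MKN74. ELOVL5 and FADS3 belong to the list of further pathway genes described below, in which other genes differed as strongly. PNPLA3 was at least 47.9-fold and MID1IP1 361-fold higher in MKN45, and ABCG1 was at least 47.3-fold higher in MKN74. Whether the genes of this route differ together was not tested. The synthesis enzymes FASN and ACACA were 1.06-fold and 1.12-fold higher in MKN45 at their brightest probes. The dimmer ACACA probe, with control signals of 236 and 523, was 2.78-fold higher in MKN45 in Cy3 and 2.7-fold in Cy5, so that the size of the ACACA difference depends on the probe. SCD was 1.57-fold higher in MKN45 in Cy3 and 1.36-fold in Cy5. Thus 4 of the 7 fatty-acid genes passed the cutoff in Cy3, all in the direction of MKN45, where 39.2% of 16700 genes did so. The median log2 difference was 0.65, against 0.27 over all genes. In Cy5, 3 of the 7 passed and the median was 0.44.

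The sterol enzymes had a median log2 difference of 0.91 (MKN45 minus MKN74), where genes in the same signal range had a median of 0.01. Of the 16, 10 were at least 1.5-fold higher in MKN45 and 1, MVK, was 1.55-fold higher in MKN74. Of the 7959 genes in that signal range, 2174 were at least 1.5-fold higher in MKN45 and 2206 in MKN74. NSDHL had control signals of 3670 in MKN74 and 9700 in MKN45 and was 3.31-fold higher in MKN45. HMGCS1 at 3.21-fold, FDFT1 at 3.11-fold and HSD17B7 at 3.01-fold followed. ACAT2, PMVK and IDI1 had log2 differences of 0.00, 0.01 and -0.04. The difference did not run evenly along the pathway: of the 7 enzymes up to FDPS, 2 were at least 1.5-fold higher in MKN45, and of the 9 from FDFT1 on, 8 were, a split made after the values were seen. TM7SF2 was the exception, at -0.42, and SQLE passed the cutoff in Cy3 only, at 0.67 against 0.33 in Cy5.

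SREBF2 had control signals of 1910 in MKN74 and 892 in MKN45 and was 1.71-fold higher in MKN74, and 1.9-fold in SET7/9 siRNA cells. SREBF1 was 1.61-fold higher in MKN74 at its brighter probe, with signals of 16100 and 8010. Its dimmer probe, well above background in both lines, went the other way, with signals of 152 and 140 and a scaled level 1.15-fold higher in MKN45, and the mean over both probes was -0.24 on the log2 scale, within the cutoff. STARD4 was 1.55-fold higher in MKN74 in both channels. INSIG1 and SCAP lay in the opposite direction, 2.48-fold and 1.89-fold higher in MKN45. These are RNA levels, and neither processed SREBP protein nor sterols were measured.

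A further 39 names of the SREBP pathway and of sterol and lipid handling were listed, of which 37 were on the array. With SET7/9 siRNA, 0 of the 34 measured in MKN74 were past 1.5-fold. In MKN45, 1 of 37 was, GGPS1, the geranylgeranyl diphosphate synthase, at 0.59 (error 0.62), where Cy5 and Cy3 were not both well above background. The median of the list was -0.02 in MKN74 and -0.05 in MKN45, and 24 of 37 were below 0 in MKN45, where 46.8% of all kept genes were. Among them were 4 further enzymes of the sterol pathway, grouped after their values were seen, and all 4 were below 0 in MKN45, between -0.52 and -0.21, against -0.13 to 0.04 in MKN74. The lowest were SC5DL, the lathosterol desaturase, at -0.13 in MKN74 and -0.52 in MKN45, and MSMO1, the C4-methylsterol oxidase, at -0.10 and -0.44. In control cells 14 of the 37 were at least 1.5-fold higher in MKN45 and 13 in MKN74, where 39.2% and 24.8% of 16700 genes were.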

How the data were processed

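RNA of MKN74 and MKN45 cells was measured on 2 two-colour Agilent 4x44K v2 arrays. The authors deposited Agilent Feature Extraction 10.7.3.1 output, which gives each spot's background-subtracted and dye-normalized intensity, a log10 ratio of Cy5 to Cy3 and an error score from an error model. A second deposited file holds log2 ratios per probe. The surrogates that the software gives to dim signals, and its LOWESS dye normalization, can shift the ratios of dim probes. Here ratios were converted to log2, outlier spots (549 in MKN74, 534 in MKN45) were left out, and spots of a probe were averaged. Probes were retained when 50% or more of their spots were well above background in Cy3 or in Cy5, and a gene was represented by its brightest kept probe. Control levels were log2 Cy3 signals minus the 75th percentile of probes well above background on both arrays. For bounds, a dim channel was raised to the lowest signal well above background where it lay under it, after loess and Aquantile scaling; without a dye swap, bounds are open to dye bias. The scanner error averages the error model over spots, and is combined between arrays as the root of summed squares. Probe coordinates are on GRCh37 and promoter windows on GRCh38.p14. All 28 names were found in the RefSeq gene table.

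The limma fit used lmFit and eBayes with Benjamini-Hochberg adjustment. Members, lists and motifs were chosen with earlier results of these data known. Full values were given for genes past 1.5-fold in either line, the 3 highest and 3 lowest means, genes whose probes differ in sign past 0.3 on the log2 scale, the 3 largest control differences in each direction, and SETD7. Counting and limma were tested on simulated data. Tools were R 4.3.3 with limma 3.58.1 and Python 3.11.15 with pandas 2.3.3.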

Additional observations from a re-analysis of the deposited data

How the results depend on the processing

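The group medians and their differences, the counts of members past the cutoff, and the log2 ratios and control differences of 11 genes given in full were recomputed with normexp and loess, median centring, both channels required above background, no filter, outlier spots kept, the deposited log2 table, the mean over kept probes, and genes kept on both arrays, and control levels also with quantile normalization, normexp signals and the Cy5 channel. Of 113 recomputed medians, differences and counts, 6 moved by more than the spread of repeated spots or, for counts, by more than 1.5 times. These were the sterol minus fatty-acid difference in MKN74, 0.044 with the mean over kept probes against -0.05; the fatty-acid median of the control difference, 0.44 in Cy5 and 0.82 with the mean over kept probes against 0.65; and the genes past the adjusted limma threshold, 2 after normexp and loess. Also, at a 2-fold cutoff 0 genes were higher in MKN74 with SET7/9 siRNA, and 0 were higher in MKN74 control cells. No called value changed sign. For single genes 34 of 231 recomputed values moved by more than that spread. FADS2 in control cells was higher in MKN45 by 2.99 with the mean over kept probes against 4.98, and SETD7 with that mean was -0.90 in MKN74 and -1.09 in MKN45. The sterol median in MKN45 moved by less than the spread under all 8 alternatives. The settings on filters, outlier spots and genes kept on both arrays left it unchanged, since each sterol enzyme was well above background in both channels. It was -0.24 in the main setting, -0.21 after normexp and loess, -0.25 with median centring and -0.23 with the mean over kept probes. Settings of that kind also count among the 113. The spread is that of a single probe, a wide measure for a median of genes. No paired analysis was possible because each cell line has 1 array, on which control and knockdown are already paired as channels. Leaving out a replicate was likewise not possible. Dim probes, whose signal lies near the background, limit what the second probes of LSS, HSD17B7 and FADS2 show.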
